A study of Mus musculus with 6 samples.

Results

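The 8 costimulatory receptor genes Cd28, Icos, Cd2, Cd7, Tnfrsf1b, Tnfrsf4, Tnfrsf9 and Tnfrsf18 were followed in natural killer (NK) cells. They were taken by symbol from the 37991 Ensembl genes counted, each symbol matched 1 row, and all 8 passed the filter on low counts. The cells were NK cells from mouse spleen carrying both CD27 and CD11b, a surface phenotype of intermediate maturation, all on the C57BL6 background. One group of 3 libraries was wildtype, and the other group of 3 was Rroid deficient, Rroid being a noncoding transcript made from a regulatory region close to Id2, whose product restrains E proteins. The labels name no treatment, and they give neither the age of the mice, the way in which the element was disrupted, nor whether other cells of the mice also carried the deficiency. They also do not say whether each library came from its own mouse, so the tests measure the spread between these libraries, which may be technical.

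Reads assigned to genes ranged from 5823626 to 9216430 per library. CPM are counts relative to the reads assigned in the library, with library sizes scaled by the trimmed mean of M-values (TMM). Rroid itself was not analysed here. Id2, the neighbouring gene read as a check of the labels, ran from 338 to 468 CPM in wildtype and from 38.9 to 81.2 CPM in deficient libraries. Wildtype library 1 and deficient library 1 stood apart from the rest, with 5.63% and 5.57% of tested genes at a count of 0 against 0.23% to 2.43% in the other 4. The summed level of 12 NK marker genes was 13069 to 15879 CPM in wildtype and 11387 to 11841 CPM in deficient libraries. Without Gzma, the gene of granzyme A (4501 ± 866 and 2560.1 ± 217 CPM, adjusted p = 0.543 in edgeR and 0.00812 in DESeq2), the sums were 8978.5 to 10913 and 8747 to 9399 CPM and overlapped. The markers Gzmb, Klrb1c and Klrk1 were, like Gzma, lower in each deficient library than in any wildtype library. Their wildtype and deficient means were 381 and 209, 1001 and 796, and 958 and 747 CPM (edgeR adjusted p from 0.895 to 0.914). The other 8 markers overlapped. By log2 fold change, 9 of the 12 markers were lower and 3 were higher, and none was called in edgeR. Ncr1, the gene of the NK receptor NKp46, had counts of 6464 to 9525 in wildtype and 5516 to 7013 in deficient libraries. The T cell gene Cd8a was at a count of 0 in every library. Means are given ± SD with n = 3 per genotype, and log2 fold changes are deficient against wildtype.

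Costimulatory receptors do not start a lymphocyte response by themselves but change its strength, survival and duration once another receptor has been engaged. CD28 and ICOS are immunoglobulin superfamily receptors best known from T cells, where their tails recruit phosphatidylinositol 3-kinase. CD2 and CD7 belong to the same superfamily and sit on T and NK cells, CD2 as an adhesion receptor for CD48. TNFR2, OX40, 4-1BB and GITR, encoded by Tnfrsf1b, Tnfrsf4, Tnfrsf9 and Tnfrsf18, are members of the tumour necrosis factor receptor family that bind TRAF adaptors and feed into NF-kappaB. In NK cells, 4-1BB, OX40 and GITR are known as receptors whose surface level depends on activation.

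The comparison of genotypes asked how these receptor genes stood when Id2 was low. Cd28 was higher in each deficient library than in any wildtype library, and Tnfrsf9 was lower in each deficient library than in any wildtype library. The other 6 genes overlapped between the genotypes. None of the 8 passed edgeR's quasi-likelihood test over the 11724 genes tested (lowest Benjamini-Hochberg adjusted p = 0.757, for Cd28), where 2 genes, 0.0171%, were called. Over all tested genes, the libraries of the genotypes did not overlap in 12.4%, with the deficient side higher in 6.03% and lower in 6.33%. An unadjusted p under 0.05 was found for 2 of the 8 genes, Cd28 and Tnfrsf9, and for 5.29% of all tested genes. DESeq2 called none of the 8 and 0.557% of the genes it tested. The median log2 fold change was 0.15 over the 8 genes and 0.02 over all tested genes. With only 8 genes, nothing particular to them is read from these shares. In these bulk libraries, fewer cells carrying a transcript and less of it per cell cannot be told apart.

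**Figure D1:**
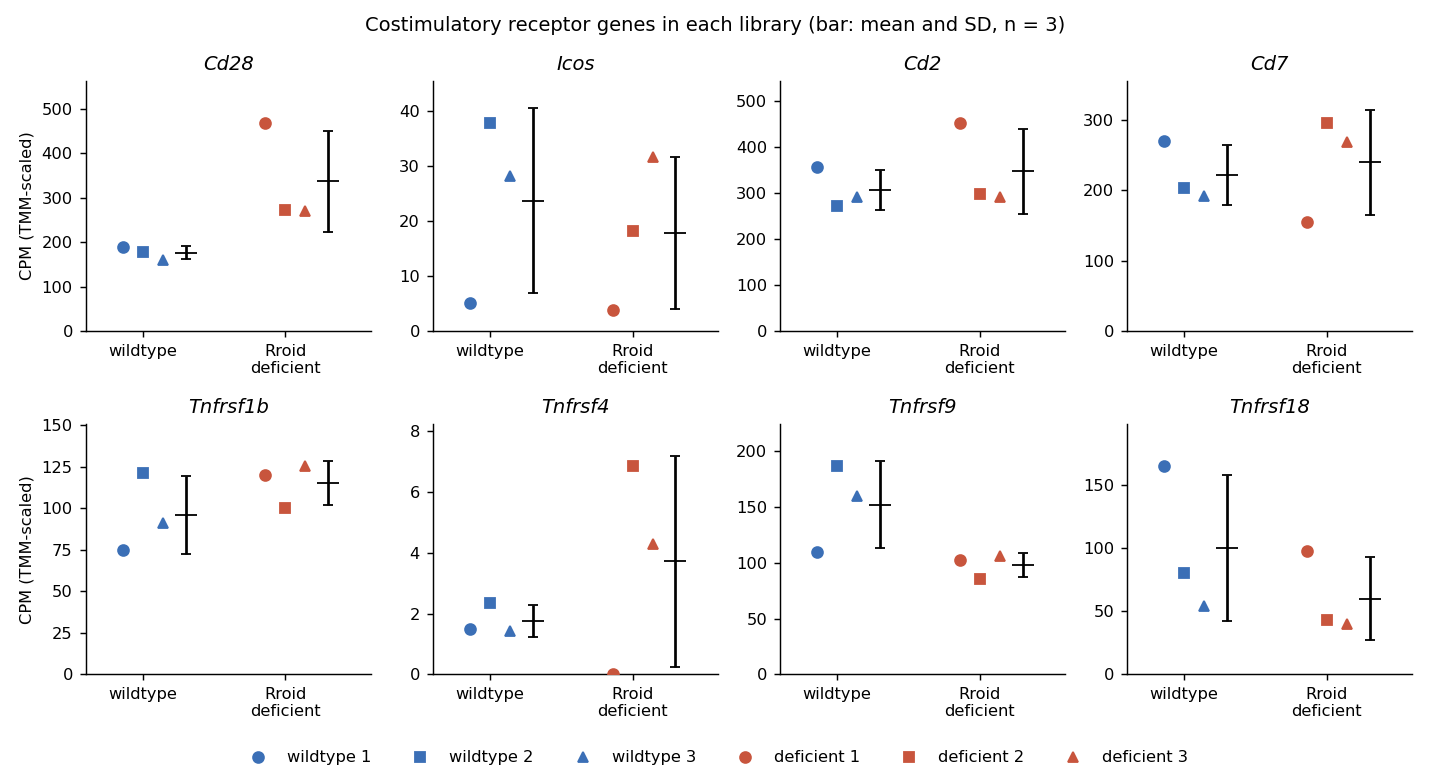
CPM of the 8 receptor genes in each of the 6 libraries, with wildtype in blue and Rroid deficient in red, and the mean and SD of each genotype as a bar (n = 3). Cd28 sits between 160.4 and 190.2 CPM in wildtype and at 271 CPM or above in the deficient libraries, and Icos is lowest in library 1 of both genotypes.

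Cd28 (ENSMUSG00000026012, chromosome 1), whose product binds CD80 and CD86, had 190.2, 179 and 160.4 CPM in wildtype libraries 1 to 3. It had 468, 273 and 271 CPM in deficient libraries 1 to 3. The groups did not overlap, and deficient library 1 stood well above the other 2 deficient libraries. The means were 177 ± 15.0 and 337 ± 114 CPM, a fold of 1.91 (95% interval 1.30 to 2.82). The log2 fold change was 0.93 (SE 0.25, unadjusted p = 0.00393, adjusted p = 0.757 in edgeR). It was 0.62 without deficient library 1 (edgeR adjusted p = 0.983) and 0.67 without library 1 of both genotypes (adjusted p = 0.714). DESeq2 gave an adjusted p of 0.0806, and edgeR without a filter on low counts gave 0.05005; over all alternatives the adjusted p ran from 0.05005 to 0.999.

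Icos (ENSMUSG00000026009), which encodes the inducible relative of CD28, behaved differently from Cd28 across libraries. It had 5.09, 37.8 and 28.2 CPM in wildtype and 3.89, 18.1 and 31.5 CPM in deficient libraries. Both libraries numbered 1, those with most tested genes at 0, held the lowest values, from counts of 34 and 27; the part of this in the Icos values was not tested. The difference on the log2 scale was -0.41 (SE 0.87, edgeR adjusted p = 0.964), with a 95% interval of -2.34 to 1.52 that allows changes of several fold either way. It was 0.06 without deficient library 1 and 0.098 without wildtype library 2, so its sign rested on single libraries. Without both libraries numbered 1 it stayed at -0.41 (edgeR adjusted p = 0.915). On chromosome 1, Ctla4 lies between Cd28 and Icos and encodes the inhibitory receptor that competes with CD28 for its ligands. Ctla4 had a count of 1 in deficient library 2 and 0 in the other 5 libraries, where a count of 0 allows up to 0.322 to 0.472 CPM by counting error alone. The 3 neighbouring genes of this receptor family thus differed widely in level in the same bulk libraries.

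Since CD28 is also a defining receptor of T cells, the T cell list was read beside it. Its 15 genes, Cd28 left out, summed to 224 to 335 CPM in wildtype and 380 to 492 CPM in deficient libraries, without overlap. Cd3g and Cd3d, which encode chains of the CD3 complex, made up 10.6 to 17.0 CPM of this in wildtype and 91.2 to 135 CPM in deficient libraries. Without these 2 genes the summed levels were 213 to 324 and 268 to 357 CPM and overlapped. Cd3g had 6.22 ± 1.91 and 63.4 ± 7.44 CPM (log2 fold change 3.35, adjusted p = 0.131 in edgeR and 2.65e-09 in DESeq2), and Cd3d had 6.79 ± 1.85 and 49.2 ± 22.4 CPM (2.86, adjusted p = 0.543 and 0.00053). Cd3d was lowest among deficient libraries in library 1, at 24.1 CPM, the library with the highest Cd28. Cd3g had 67.2 CPM in that library, against 54.8 and 68.2 CPM in the other deficient libraries. Cd3e, whose gene lies beside these, had a count of 3 in wildtype library 2 and 0 in every other library, Cd4 had 57 in wildtype library 1 and 0 elsewhere, and Cd6 and Cd8a had 0 throughout. Cd8b1 had 37 in wildtype library 1 and 0 elsewhere, and Cd5, Themis and Trat1 had at most 7 in any library. Trbc2, a T cell receptor beta constant gene, had 51.4 ± 10.4 against 111 ± 17.3 CPM (1.11 on the log2 scale, edgeR adjusted p = 0.787), and its near-identical copy Trbc1 had 139 ± 38.3 and 162 ± 26.8 CPM, with reads that may be split between them. Trbc2 was highest in deficient library 1, at 125 CPM. Trac, the alpha constant gene, had counts of 0, 47 and 11 in wildtype and 1, 58 and 82 in deficient libraries. Bcl11b, a transcription factor gene of the T cell lineage, was lower in each deficient library (13.7 ± 8.20 and 2.38 ± 0.937 CPM, edgeR adjusted p = 0.906), and Lat, an adaptor gene, overlapped at 41.0 ± 5.66 and 36.3 ± 5.17 CPM. Of the 7 T cell genes that passed the filter, 5 were higher by log2 fold change and 2 were lower. Cd3g, Cd3d and Trbc2 were higher without overlap, Bcl11b alone was lower without overlap, and the other 3 overlapped. Most of the tested T cell genes, though not all, thus had the same direction as Cd28. Their part in the Cd28 difference was not tested.

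**Figure D2:**
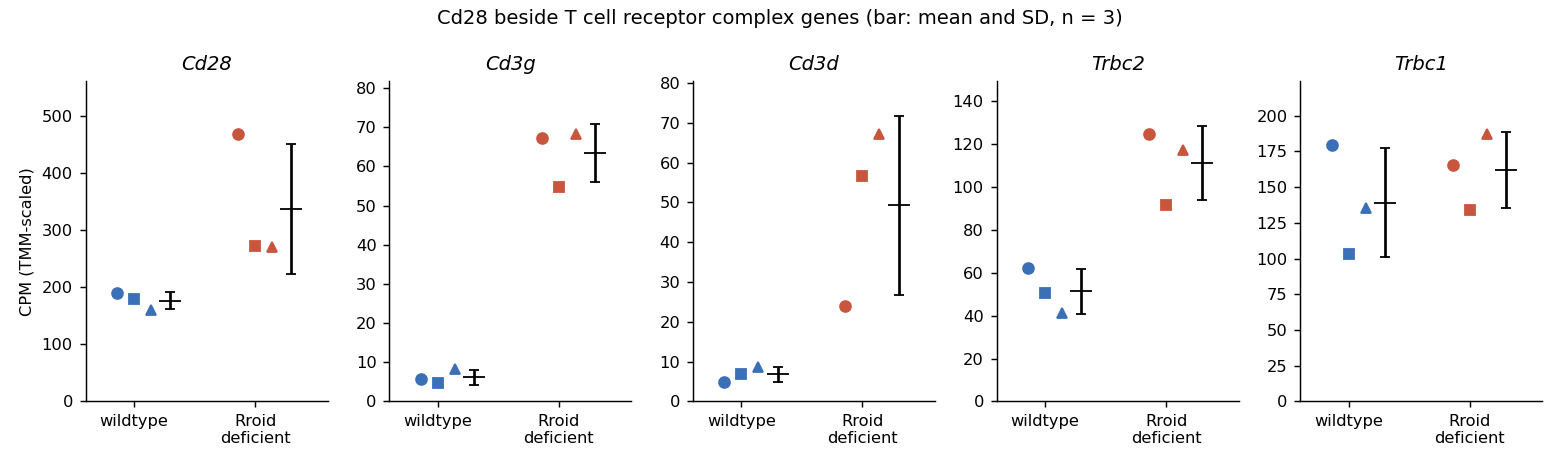
CPM of Cd28 and of 4 genes of the T cell receptor complex in each library, wildtype in blue and Rroid deficient in red, circles, squares and triangles being libraries 1, 2 and 3, with the mean and SD as a bar (n = 3). Cd28, Cd3g, Cd3d and Trbc2 do not overlap between the genotypes and Trbc1 does. Within its group, deficient library 1 is highest for Cd28 and Trbc2, between the others for Cd3g and Trbc1, and lowest for Cd3d.

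Cd2 and Cd7 were at high levels and overlapped between the genotypes. Cd2 (ENSMUSG00000027863, chromosome 3) had 356, 272 and 291 CPM in wildtype and 452, 298 and 291 CPM in deficient libraries. Deficient library 1 was the highest of all 6 here as well, and the other 5 libraries lay within 272 to 356 CPM. Cd2 differed by 0.18 on the log2 scale (SE 0.23, 95% interval -0.32 to 0.68, edgeR adjusted p = 0.938), and it was -0.06 without deficient library 1. Cd7 (ENSMUSG00000025163, chromosome 11) had 271, 204 and 192 CPM in wildtype and 156, 296 and 268 CPM in deficient libraries. Library 1 was the highest of the wildtype and the lowest of the deficient libraries. Cd7 differed by 0.11 on the log2 scale (SE 0.27, 95% interval -0.49 to 0.72, edgeR adjusted p = 0.967), and -0.07 without deficient library 2. Without library 1 of both genotypes Cd7 was at 0.51 (unadjusted p = 0.0211, edgeR adjusted p = 0.755). The upper bounds correspond to folds of 1.61 for Cd2 and 1.64 for Cd7. The noncoding gene Gm11775 is annotated on the strand opposite to Cd7 and overlaps it. Its counts were 813, 774 and 560 in wildtype and 418, 815 and 950 in deficient libraries, lowest in the same library as Cd7. The library kit keeps no strand information, so reads from both genes cannot be told apart where they overlap. Whether such reads were counted for either gene or left out was not given.

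The 4 TNF receptor genes all lie on chromosome 4, with Tnfrsf4 and Tnfrsf18 as direct neighbours among coding genes, and RefSeq promoter sequences were at hand for all 4 (5 start sites on build GRCm38.p6, 2 of them for Tnfrsf9). Cd28, Icos, Cd2 and Cd7 are named only. The 250 bases before each start were searched on both strands for CAGNTG, the form of E-box that E proteins, the factors held back by Id2, are known to bind, and for the kappaB motif of NF-kappaB. CAGNTG was found before 3 of the 5 starts, and before 44.8% of 32851 promoters in the table. The kappaB motif was found before 1 of the 5, and before 7.25% of all promoters. A match describes the letters and not a bound site. The 30-base stretches around the matches are shown because E proteins are the partners of Id2 and NF-kappaB is the pathway of these receptors. Each runs 5′ to 3′ on the strand of the gene, with the matched bases in capitals.

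Tnfrsf9, chr4:150927844-150927873, plus strand: cctaatgggcaaCAGCTGattccaagaaac
Tnfrsf9, chr4:150927944-150927973, plus strand: cacagagCAGCTGGGGATTTCCCaggaggc
Tnfrsf9, chr4:150927968-150927997, plus strand: ggaggccctgctCAGTTGagtcacaggtcc
Tnfrsf18, chr4:156026079-156026108, plus strand: aaggggtgcccaCAGGTGgcagcagtggca
Tnfrsf18, chr4:156026237-156026266, plus strand: ttacaaacacctCAGATGtctgccggaaac
Tnfrsf1b, chr4:145246985-145247014, minus strand: gccagggaatcaCAGGTGgaggtgtcctgc

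In the second of these stretches, at the downstream start of Tnfrsf9, an E-box of this form was followed by 2 overlapping kappaB matches, of which the first shares its last base, so that the capitals form 1 run of 16 bases. The upstream start of Tnfrsf9 and the start of Tnfrsf4 held neither motif in their windows. The bases after the Tnfrsf4 start matched no annotated transcript of the gene, unlike those of the other starts.

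Tnfrsf9 (ENSMUSG00000028965), which encodes the activation receptor 4-1BB, had 109.7, 187 and 159.7 CPM in wildtype libraries. It had 102, 85.8 and 106 CPM in deficient libraries. The groups did not overlap, but wildtype library 1 lay close to the deficient libraries, 109.7 against 106 CPM. The means were 152 ± 39.1 and 98.0 ± 10.7 CPM (log2 fold change -0.63, SE 0.27, 95% interval -1.24 to -0.03). The unadjusted p was 0.0413, and the adjusted p was 0.914 in edgeR and 0.566 in DESeq2. The log2 fold change stayed between -0.83 and -0.46 with any 1 library left out. The coding gene Camta1 overlaps Tnfrsf9 on the opposite strand, with counts of 15 to 102 in wildtype and 99 to 301 in deficient libraries.

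Tnfrsf18 (ENSMUSG00000041954), the gene of GITR, also had a lower mean in the deficient libraries, but its groups overlapped. It had 165, 80.3 and 54.4 CPM in wildtype and 97.6, 42.7 and 40.0 CPM in deficient libraries. Library 1 was the highest of each genotype, the opposite of Icos. Tnfrsf18 differed by -0.73 on the log2 scale (SE 0.49, 95% interval -1.82 to 0.35, edgeR adjusted p = 0.925). It was -0.18 without wildtype library 1 and -1.28 without deficient library 1. Leaving out 1 of these 2 libraries, the ones with most tested genes at 0, thus moved the value most, in opposite directions. Without both it was -0.71 (edgeR adjusted p = 0.782), close to the value with all libraries. The noncoding gene Gm16008 overlaps Tnfrsf18 on the opposite strand, with counts of 118 to 196 in wildtype and 98 to 233 in deficient libraries.

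Tnfrsf1b (ENSMUSG00000028599), the gene of TNFR2, which binds tumour necrosis factor and lymphotoxin alpha, had an SD of 0.27 on the log2 scale over the 6 libraries, the smallest of the 4. Its values were 75.0, 121 and 91.1 CPM in wildtype and 120.2, 100.2 and 125 CPM in deficient libraries, and the groups overlapped through wildtype library 2. Tnfrsf1b differed by 0.27 on the log2 scale (SE 0.28, 95% interval -0.35 to 0.89, edgeR adjusted p = 0.936), and by 0.11 without wildtype library 1 and 0.47 without wildtype library 2. Tnfrsf4 (ENSMUSG00000029075), the gene of OX40, was near the detection limit, with counts of 10, 22 and 9 in wildtype and 0, 42 and 31 in deficient libraries. The count of 0 in deficient library 1 allows up to 0.432 CPM by counting error alone, and the other deficient libraries had 6.85 and 4.29 CPM against 1.42 to 2.36 CPM in wildtype. The log2 fold change of Tnfrsf4 was 1.07 with an SE of 1.47 (95% interval -2.22 to 4.35, edgeR adjusted p = 0.940), and limma-voom gave -0.54, so no direction was resolved. It was 0.28 without deficient library 2 and 1.64 without deficient library 1.

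**Figure D3:**
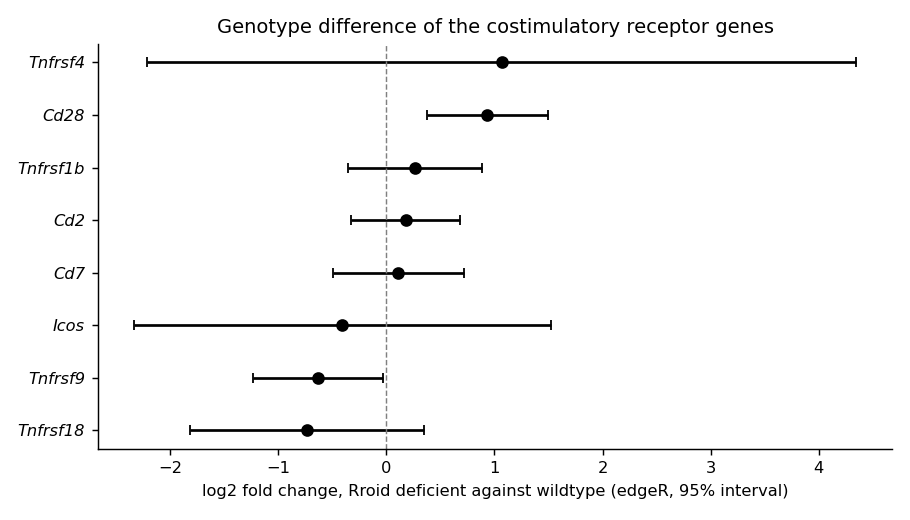
Log2 fold change of each receptor gene, Rroid deficient against wildtype, from edgeR over all tested genes, with 95% intervals (3 libraries per genotype). The unadjusted intervals of Cd28 (0.37 to 1.49) and Tnfrsf9 (-1.24 to -0.03) lie on 1 side of 0, and those of Icos and Tnfrsf4 are the widest.

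Levels were compared between genes as mean CPM per kilobase of annotated exon. In wildtype the order was Cd7 (196 ± 37.5), Cd2 (176 ± 25.4), Tnfrsf18 (65.6 ± 38.0), Tnfrsf9 (55.8 ± 14.3), Cd28 (28.8 ± 2.46), Tnfrsf1b (25.1 ± 6.14), Icos (6.90 ± 4.90) and Tnfrsf4 (1.29 ± 0.384). Neighbours whose libraries did not overlap were Cd2 and Tnfrsf18, Tnfrsf9 and Cd28, and Tnfrsf1b and Icos; the other neighbouring pairs overlapped. From top to bottom the overlapping neighbours were thus the pairs Cd7 with Cd2, Tnfrsf18 with Tnfrsf9, Cd28 with Tnfrsf1b, and Icos with Tnfrsf4. Overlap is not an equal level. Icos reached the range of Tnfrsf4 (1.04 to 1.73) only in its lowest wildtype library, library 1, at 1.48. In deficient libraries the same top and bottom pairs were found. Cd28 (55.1 ± 18.5) then came next, ahead of Tnfrsf18 (39.4 ± 21.3), Tnfrsf9 (36.0 ± 3.92) and Tnfrsf1b (30.2 ± 3.49), and each neighbouring pair among these 4 genes overlapped. Among 11262 tested genes of known exon length, 88.5% had a lower level per kilobase than Cd28 in wildtype and 94.5% in deficient libraries, while for Tnfrsf9 the shares were 94.7% and 91.0%. Cd7 and Cd2 lay above 98.6% or more of these genes in both genotypes. The exon lengths come from an annotation of another build than the counts and assume that all annotated exons are used.

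**Figure D4:**
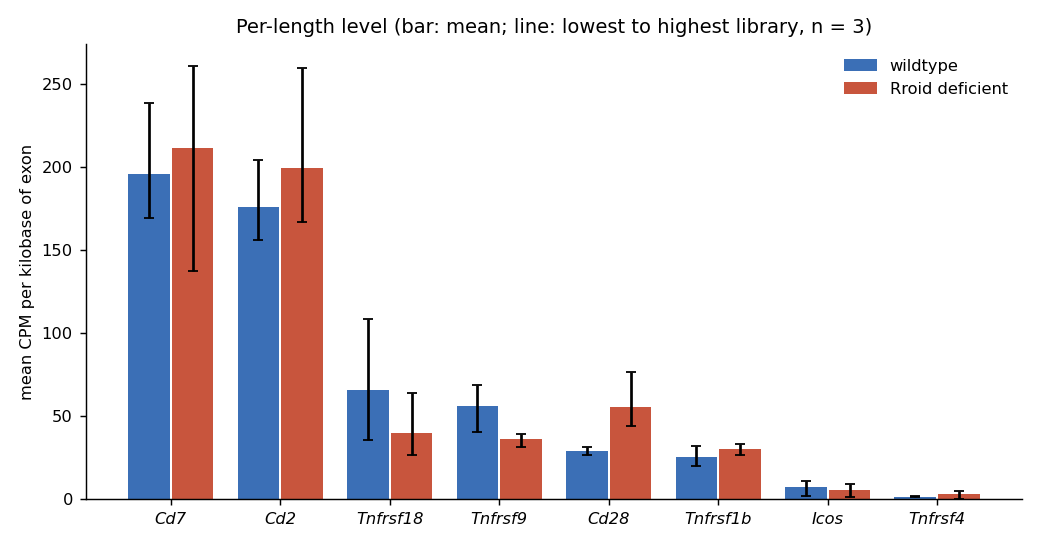
Mean CPM per kilobase of exon for each receptor gene in wildtype (blue) and Rroid deficient (red) libraries, with lines from the lowest to the highest of the 3 libraries. Cd7 and Cd2 stand above the other genes in both genotypes, and Cd28 moves from 28.8 in wildtype to 55.1 in deficient libraries.

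The ligands of these receptors were mostly low in these cells. Of 12 ligand genes, 3 passed the filter, and none was called. Cd48, the ligand of CD2, had 136 ± 19.5 against 149 ± 10.2 CPM (0.13 on the log2 scale, edgeR adjusted p = 0.954). Lgals1, which encodes galectin-1, a lectin whose binding partners include CD7 in human cells, had 482, 271 and 227 CPM in wildtype and 239, 156 and 185 CPM in deficient libraries. Its groups overlapped (log2 fold change -0.76, SE 0.30, edgeR adjusted p = 0.914). Icosl, the ligand of ICOS, had 8.02 ± 6.17 and 11.3 ± 2.50 CPM. The CD28 ligand genes were low in CPM and not tested: Cd80 had counts of 6, 0 and 25 in wildtype and 0, 2 and 0 in deficient libraries, and Cd86 had 2, 10 and 4 against 1, 44 and 47. Tnf, a ligand of TNFR2, had counts of 0, 3 and 3 in wildtype and 89, 7 and 167 in deficient libraries. Its wildtype counts were all at or under the limit that a count of 0 allows, its deficient counts varied widely, and it was not tested. Lta had counts of 0, 25 and 1 against 0, 0 and 0. Tnfsf4, the OX40 ligand gene, had 1, 12 and 9 against 0, 0 and 7, and Tnfsf9, the 4-1BB ligand gene, had 0, 7 and 8 against 19, 0 and 3. Tnfsf18, the GITR ligand gene, and Sectm1a and Sectm1b, mouse relatives of the gene of a human CD7 ligand, had 0 in every library.

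Of 16 further genes of the CD28 and TNF receptor families, 6 passed the filter and none was called in edgeR. Cd27, the TNF receptor gene used in the sort, had 270.1 ± 69.6 and 304 ± 51.3 CPM (log2 fold change 0.17, SE 0.23). Tnfrsf13c, the gene of the B cell survival receptor BAFF-R, had 11.5, 13.2 and 10.1 CPM in wildtype and 0, 1.63 and 9.96 CPM in deficient libraries, without overlap but with an SE of 1.34. Fas, the death receptor gene, had 1.97 ± 1.93 and 5.23 ± 5.59 CPM, and Tnfrsf21, which encodes death receptor 6, had 7.05 ± 4.54 and 4.05 ± 3.88 CPM. Pdcd1, Cd40, Ltbr and Tnfrsf17 had a count of 0 in every library. Tnfrsf1a, the gene of TNFR1, had 27.5 ± 3.25 and 33.2 ± 13.3 CPM.

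Genes that act below these receptors were present throughout. All 20 signalling partners of CD28, ICOS, CD2 and CD7 passed the filter, none was called in edgeR, 9 had a positive and 11 a negative log2 fold change, and the median was -0.07. The libraries did not overlap for 1 higher and 5 lower of the 20, beside 6.03% higher and 6.33% lower over all tested genes. Akt1, a kinase downstream of CD28, had 57.2 ± 18.2 and 29.5 ± 7.14 CPM (log2 fold change -0.95, SE 0.42). Pik3r1, the regulatory subunit of the kinase that CD28 and ICOS recruit, had 631 ± 64.3 and 488 ± 56.9 CPM (log2 fold change -0.37, SE 0.17). Prkcq, the protein kinase C isoform of the CD28 pathway, had 254 ± 33.3 and 337 ± 32.6 CPM (log2 fold change 0.41, SE 0.19) and was the 1 higher gene. Pstpip1, which binds the tail of CD2, had 51.2 ± 12.7 and 28.9 ± 0.346 CPM (log2 fold change -0.82, SE 0.40). Their edgeR adjusted p ran from 0.914 to 0.918.

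All 23 genes of the TRAF and NF-kappaB list passed the filter, and none was called in edgeR. A positive log2 fold change was found for 17 and a negative one for 6, with a median of 0.28 against 0.02 over all tested genes, of which 51.6% were positive. The libraries did not overlap for 4 higher genes and 1 lower gene of the 23, beside the same 6.03% and 6.33% over all tested genes. Nfkbib, an NF-kappaB inhibitor gene, had 26.6 ± 9.97 and 51.6 ± 5.20 CPM (log2 fold change 0.96, SE 0.43). Ikbkb, the kinase that releases NF-kappaB, had 80.8 ± 19.9 and 136 ± 58.1 CPM (log2 fold change 0.75, SE 0.35), and deficient library 2 was the highest at 203 CPM. Bcl2l1, the gene of the survival protein BCL-XL, had 26.6 ± 17.1 and 55.0 ± 13.4 CPM (log2 fold change 1.05, SE 0.52). Traf3, a TRAF adaptor that restrains the noncanonical branch, was the 1 lower gene, at 58.5 ± 9.49 and 39.5 ± 7.23 CPM (log2 fold change -0.57, SE 0.36). The edgeR adjusted p of these 4 ran from 0.914 to 0.925.

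The genes most like each receptor across the 6 libraries were found by the root mean square difference of log2 CPM, each gene centred on its own mean, among 5723 genes (5724 for Tnfrsf4) at a mean of 20 CPM or more. Nearest to Cd28 were Napa, a vesicle fusion adaptor gene, and Manf, which encodes a factor of the endoplasmic reticulum stress response, at differences of 0.13 and 0.14 on the log2 scale, where Cd28 itself varied with an SD of 0.52. Manf had 31.0, 31.0 and 31.8 CPM in wildtype and 102, 56.4 and 50.3 CPM in deficient libraries, with deficient library 1 highest as in Cd28. Nearest to Tnfrsf9 were Ankrd27 and Baz2b (0.11 and 0.12), and nearest to Tnfrsf18 were Calhm2 and Rp2 (0.14 and 0.16). Otud7b and Tbck were nearest to Cd2 (both 0.056), Arpc3 and Atp5j to Cd7 (0.088 and 0.089), and Zfp346 and Snw1 to Tnfrsf1b (0.071 and 0.080). Icos had Pacs2 and Rmi1 at 0.32 and 0.38, and Tnfrsf4 had Tob2 and Zfp952 at 0.25 and 0.29. No receptor gene of the 8 was among the nearest 2 of another. Tnfrsf4 lay below 20 CPM and could not have been. With only 2 places among 5723 genes, nothing is read from this absence.

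**Figure D5:**
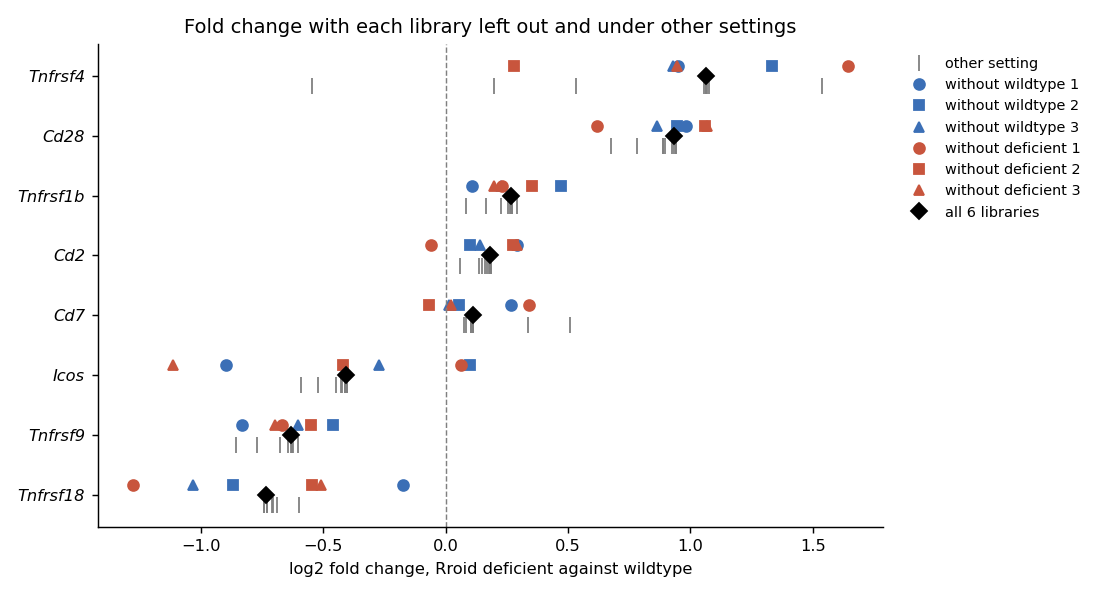
Log2 fold change of each receptor gene with all 6 libraries (black), with each library left out (coloured by the genotype of the library left out) and under the other settings (grey). Cd28 stays between 0.62 and 1.07 and Tnfrsf9 between -0.86 and -0.46, while Cd2, Cd7, Icos and Tnfrsf4 have values on both sides of 0.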

How the data were processed

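The authors deposited raw counts, whole numbers of reads per Ensembl gene, with 1 file per library. Trimmomatic 0.33 is listed in the submitters' processing notes, as are HTSeq 0.6.1, TopHat2 2.1.0, DESeq2 and the builds NCBIM37 and mm9. Their order and settings were not given there. The 5 closing rows that name no gene held 80.0% to 84.4% of the reads listed and were left out.

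The labels name no batch. Symbols and exon lengths came from GENCODE M21 (GRCm38), which named 32919 genes. The test was edgeR 4.0.16 in R 4.3.3 with TMM, filterByExpr, a quasi-likelihood fit on genotype and Benjamini-Hochberg adjustment over all tested genes at 0.05. It was tested on simulated data whose planted changes were larger than those fitted for the receptor genes, so its power at their size was not measured. Each SE is the log2 fold change over the root of F. Alternatives were RLE or unscaled library sizes, DESeq2 1.42.0 and limma 3.58.1 (voom, with and without quality weights) on the filtered genes, no filter, a stricter filter (10 counts in 3 libraries and a mean of 2 CPM), libraries left out, and a replicate block. Likeness used a pseudocount of 0.5 CPM. Limits from a count of 0 used 3 counts. Figures were drawn with matplotlib 3.10.9.

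The members and lists were chosen with earlier results of these data known. Named were all 8 members, all ligands, up to 4 genes of smallest p in the family, CD28 signalling and TRAF lists, defining markers (1 is not reported here), genes between members and the 2 nearest patterns. Other marker and family genes and the overlapping genes were named after their values were seen.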

Additional observations from a re-analysis of the deposited data

How the results depend on the processing

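No receptor gene passed in any of 15 alternatives. Cd28, Tnfrsf1b, Tnfrsf9 and Tnfrsf18 kept their sign in all 15. With 1 library left out, the log2 fold change ran from 0.62 to 1.07 for Cd28, -0.062 to 0.29 for Cd2, -0.070 to 0.34 for Cd7, -1.12 to 0.098 for Icos, 0.11 to 0.47 for Tnfrsf1b, 0.28 to 1.64 for Tnfrsf4, -0.83 to -0.46 for Tnfrsf9 and -1.28 to -0.18 for Tnfrsf18; Cd2 turned without deficient library 1, Cd7 without deficient library 2, and Icos without wildtype library 2 (0.098) or deficient library 1 (0.062). Tnfrsf4 was -0.54 with limma-voom, and the cause was not tested. Over all genes, 2 were called; DESeq2 called 65, limma-voom 1, voom with quality weights 8, and edgeR without a filter 98. edgeR called 0 without any 1 library (0 to 0, with 508 to 966 genes at an unadjusted p under 0.05) and 0 without both libraries numbered 1 (767). With the replicate number as a block edgeR called 0 (455 at an unadjusted p under 0.05), and Cd28 was 0.89. The labels do not say whether the numbers pair the libraries. Deviations of same-numbered libraries correlated at 0.014, -0.017 and 0.040, and 2 of 6 libraries correlated best with their own number. Such weak correlations cannot exclude a shared origin, and both libraries numbered 1 had most tested genes at 0. At a few CPM, as for Tnfrsf4, an SE above 1 hides changes of several fold.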

Other observations

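Il2ra, the gene of the alpha chain of the high-affinity interleukin-2 receptor, another activation receptor of NK cells, had 4.19, 3.22 and 4.72 CPM in wildtype and 23.4, 16.5 and 7.33 CPM in deficient libraries. The groups did not overlap (log2 fold change 1.96, SE 0.79, edgeR adjusted p = 0.914). Foxp3, the defining gene of regulatory T cells, which also carry Il2ra, Icos and Tnfrsf18, had counts of 11, 10 and 36 in wildtype and 43, 88 and 1 in deficient libraries. Its values overlapped. Within the deficient group, Foxp3 and Tnfrsf4 were highest in library 2, and Il2ra and Tnfrsf18 in library 1. Icos was highest in library 3, where Foxp3 was at 1 count. The summed level of 5 regulatory T cell genes was 41.3 to 51.1 CPM in wildtype and 36.2, 105 and 30.6 CPM in deficient libraries. Ikzf2 alone made up 44.9, 37.0 and 38.7 CPM of this in wildtype and 6.63, 74.4 and 23.1 CPM in deficient libraries. The part of such cells in the receptor values was not tested.

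Cd68, a myeloid marker that also marks lysosomes, had counts of 15, 105 and 7 in wildtype and 211, 129 and 142 in deficient libraries, without overlap (log2 fold change 2.27, SE 0.90, edgeR adjusted p = 0.914). Of the 10 myeloid genes, C1qa, S100a8 and Cd14 had 0 in every library, Csf1r had 12 to 26 in wildtype and 0 to 20 in deficient libraries, and Lyz2 had 12 in wildtype library 3, 55 in deficient library 3 and 0 elsewhere. Their summed level, mostly Itgax, which NK cells also carry, was 421 to 504 and 401 to 469 CPM and overlapped. Il1rl1, a marker of other innate lymphoid cells, had 9 in wildtype library 2, 1 in deficient library 3 and 0 elsewhere. The 7 markers of such cells summed to 204 to 209 CPM in wildtype and 150 to 176 CPM in deficient libraries, without overlap. Among them, Klrg1 was lower in each deficient library (means 103 and 41.4 CPM, edgeR adjusted p = 0.895). Gata3 (60.4 and 66.1 CPM), Il7r (22.3 and 36.4 CPM) and Rora (20.7 and 14.1 CPM) overlapped. What such cells add to the receptor values was not tested.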
